A study of Mus musculus with 4 samples.

Results

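Genes of the signal recognition particle (SRP) and of its receptor were examined for binding of XBP1s, the active transcription factor made when XBP1 mRNA is spliced during endoplasmic reticulum (ER) stress signalling, in mouse natural killer (NK) cells. The 8 genes were taken by name: Srp9, Srp14, Srp19, Srp54a, Srp68 and Srp72 for the protein subunits of the particle, and Srpr and Srprb for the receptor. The rule used no measured value, but the genes were chosen with earlier results of these data known. They stand among 21900 protein-coding genes of the RefSeq table for GRCm38.p6, the assembly of the mm10 build used by the authors. Chromatin came from splenic NK cells of C57BL/6 mice, described in the series as Il15TgXbp1f/f, that is, with an Il15 transgene and floxed Xbp1 alleles. No Cre and no promoter of the transgene are named. The cells of all 4 libraries (2 XBP1s immunoprecipitations and 2 inputs) had been given IL-15 at 50 ng/ml for 1 h, and no library is labelled as untreated or XBP1-deficient.

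The values are 1 deposited list of 4890 intervals with no column for any library. The authors' score is 0 for all 4890, so the width of an interval in bp is the quantity that could be compared, and width does not measure signal. No replicate error can be given, sequencing depths are unknown, and no difference below was tested. A peak list does not measure expression and cannot check cell purity. Of 8 NK cell markers the granule genes Gzma, Gzmb and Prf1 had a peak, that of Gzma centred at -4057 bp from the start site. The receptor and lineage genes Ncr1, Klrb1c, Klrk1, Eomes and Itga2 had none. Of 4 markers each for B cells, T cells, myeloid cells and erythroid cells none had one. Over all 21900 protein-coding genes 15.9% had one, and at that share 0 of 4 cannot show a departure from the background.

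SRP is a ribonucleoprotein that meets ribosomes as they begin to make a secreted or membrane protein. SRP54 binds the signal sequence of the nascent chain, the SRP9 and SRP14 proteins slow elongation from the Alu end of the 7SL RNA, and SRP19, SRP68 and SRP72 bind the other end, called the S domain. The receptor, made of a GTPase alpha subunit and a membrane-anchored beta subunit, then docks the ribosome at the translocon of the ER. In NK cells this route carries granule proteases, perforin and cytokines into the secretory pathway, and XBP1s is known in other cells as a driver of ER and secretory genes.

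XBP1s intervals were listed at 7 of the 8 genes (87.5%, exact Clopper-Pearson 95% interval 47.3 to 99.7). That range treats the genes as independent draws, which a fixed named set in 1 list is not, and it holds no replicate variation. Over all 21900 protein-coding genes, 15.9% had an XBP1s interval with its centre within 5000 bp of the transcription start site (TSS). Srp54a, the gene of the signal-binding subunit, was the member without an interval. The 7 genes carried 9 intervals, and 7 of these, 1 per gene, covered the RefSeq start site.

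**Figure D1:**
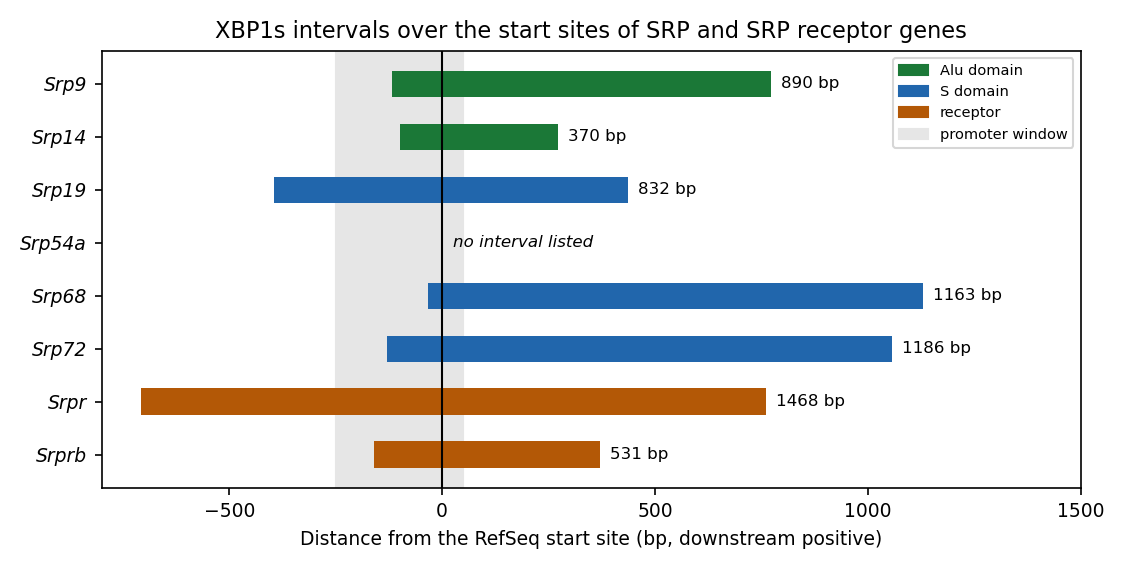
Extent of the XBP1s interval over the start site of each SRP and SRP receptor gene, in bp from the RefSeq start with downstream positive, coloured by the part of the particle; the grey band is the window of 250 bp before to 50 bp after the start whose sequence was examined. Each of the 7 intervals reaches further downstream than upstream, Srpr has the widest at 1468 bp, and Srp54a has none.

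The receptor genes held the widest interval of the group and 1 of the narrower ones. Srpr encodes the alpha subunit, the GTPase that meets SRP54. Its interval of 1468 bp (chr9:35210495-35211962) was centred 25 bp downstream of the TSS, was annotated as promoter, and ranked 90 of the 4890 by width. Of 3487 protein-coding genes with an interval, 2.32% had one at least as wide. It reached 708 bp upstream and 759 bp downstream of the start, the most even reach in bp of the intervals wider than 1000 bp in this group. Srprb encodes the membrane-anchored beta subunit. Its interval of 531 bp (chr9:103201696-103202226) lay over exon 1 of 7, centred 104 bp downstream of the TSS, and 34.2% of genes had one at least as wide.

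Foxred1, a protein-coding gene on the other strand, starts 32 bp from the start of Srpr by its outer RefSeq end. That end lies inside the same interval, and Foxred1 has no row of its own in the list. Its promoter window (chr9:35211006-35211305, minus strand) is set on another start, further from that end and also inside the interval. The authors' assignment of the nearest gene gives this interval to Srpr, and which of the 2 genes has its start site occupied cannot be told apart.

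The promoters of the receptor genes are shown because the interval of Srpr covered all 300 bases of this window and that of Srprb covered 211 (70.3%), and because both hold letters of known XBP1 and ATF6 elements. Sequences are those of RefSeq for GRCm38.p6, from 250 bases before to 50 after the start, and 6 of the 8 members matched that table. Capitals mark ACGT, the core of the elements bound by XBP1 and related factors, CCACG, part of the ER stress element (ERSE), and GCCACGT, which joins them, on either strand. The window of Srpr is chr9:35210953-35211252, plus strand, and that of Srprb is chr9:103202016-103202315, minus strand.
Srpr: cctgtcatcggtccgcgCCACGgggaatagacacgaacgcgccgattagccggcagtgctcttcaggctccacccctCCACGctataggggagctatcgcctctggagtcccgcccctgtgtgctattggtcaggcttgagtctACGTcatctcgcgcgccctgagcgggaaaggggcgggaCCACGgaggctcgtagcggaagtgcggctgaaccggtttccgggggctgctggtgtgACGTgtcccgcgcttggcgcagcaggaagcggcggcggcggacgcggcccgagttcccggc
Srprb: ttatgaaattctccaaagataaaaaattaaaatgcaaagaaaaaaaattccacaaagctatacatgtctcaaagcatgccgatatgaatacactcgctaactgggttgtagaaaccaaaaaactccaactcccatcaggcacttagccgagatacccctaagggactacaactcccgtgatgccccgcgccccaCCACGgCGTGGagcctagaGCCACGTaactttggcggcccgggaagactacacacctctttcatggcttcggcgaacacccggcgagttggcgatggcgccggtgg

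The Srpr window held CCACG at 3 places, beginning 233, 173 and 68 bases before the start, and ACGT at 2, beginning 106 and 11 bases before it. In Srprb, CCACG began 56 bases before the start and its reverse complement 50 bases before it, a mirrored pair with 1 base between them. A GCCACGT followed, beginning 37 bases before the start, which contains both a CCACG and the ACGT of this window. All of these matches lay inside the listed intervals.

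Srp9 and Srp14 encode the pair that holds the Alu end of the particle. Srp9 had 1 interval of 890 bp (chr1:182124619-182125508), centred 326 bp downstream of the TSS in intron 1 of 2, and the authors' detailed annotation labels it CpG. It reached 118 bp upstream and 771 bp downstream of the start, and 11.3% of genes with an interval had one at least as wide. The lncRNA gene Gm33725 begins on the other strand 29 bp inside Srp9, also within this interval, and has no row of its own. Srp14 had the narrowest start-site interval of the group, at 370 bp (chr2:118479426-118479795), centred 86 bp downstream of the TSS. Of genes with an interval, 57.2% had one at least as wide, so the partners of this pair stood on different sides of the gene median of 410 bp. A second interval of 412 bp was assigned to Srp14 (chr2:118490376-118490787). It was annotated as intergenic and centred 10885 bp upstream, and was thus wider than the one at the promoter.

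The Srp14 window (chr2:118479647-118479946, minus strand) is shown because it held a single ACGT and no CCACG. The ACGT began 17 bases before the start, inside the interval, which covered 149 of the 300 bases.
Srp14: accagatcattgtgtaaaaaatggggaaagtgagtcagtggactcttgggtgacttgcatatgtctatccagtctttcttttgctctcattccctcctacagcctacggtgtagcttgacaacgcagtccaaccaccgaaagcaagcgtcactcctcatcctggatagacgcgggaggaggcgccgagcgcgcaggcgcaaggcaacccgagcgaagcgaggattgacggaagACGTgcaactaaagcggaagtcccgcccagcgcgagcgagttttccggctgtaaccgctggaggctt

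Srp68 and Srp72 encode a dimer of the S domain, and their intervals were alike in width and placement. Srp72 had 1 of 1186 bp (chr5:76974571-76975756), centred 462 bp downstream of the TSS in intron 1 of 18. It reached 130 bp upstream and 1055 bp downstream of the start. Srp68 had 1 of 1163 bp (chr11:116273088-116274250), centred 548 bp downstream in intron 1 of 15, which reached 33 bp upstream and 1129 bp downstream. The downstream part was thus 89.0% of the interval at Srp72 and 97.1% at Srp68, the highest shares of the 7. Of genes with an interval, 4.99% had one at least as wide as that of Srp72 and 5.28% as that of Srp68. A second Srp68 interval of 280 bp (chr11:116259520-116259799) lay in intron 8 of 15, 14558 bp downstream of the TSS, and was the narrowest of the 9.

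The Srp72 window (chr5:76974451-76974750, plus strand) is shown as the contrast to those of the receptor genes. It held none of the XBP1 or ATF6 element letters searched, so nothing in it is in capitals. The interval covered 180 of its 300 bases, and most of the interval lay downstream of the window and was not searched.
Srp72: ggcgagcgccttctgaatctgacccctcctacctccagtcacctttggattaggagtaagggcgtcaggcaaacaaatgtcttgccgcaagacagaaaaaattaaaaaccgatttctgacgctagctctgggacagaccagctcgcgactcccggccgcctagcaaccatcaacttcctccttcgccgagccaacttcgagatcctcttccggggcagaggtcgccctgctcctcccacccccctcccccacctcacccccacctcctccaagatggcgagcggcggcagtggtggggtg

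Srp19, whose product helps SRP54 to bind the RNA, had an interval of 832 bp (chr18:34330725-34331556), centred 5 bp upstream of the TSS and annotated as promoter. It was the only 1 of the 7 centred upstream by the authors' distance. Measured from the RefSeq start it reached 396 bp upstream and 435 bp downstream, a nearly even reach like that of Srpr. Of genes with an interval, 13.0% had one at least as wide.

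Srp54a, whose product binds the signal sequence, had no interval. The nearest lay 81216 bp away, at Baz1a. Mouse chromosome 12 holds 3 copies in a row, Srp54a, Srp54b and Srp54c, with start sites spaced by 74608 and 75273 bp, and no interval was listed over any of them (0 of 3 copies). Over all protein-coding genes 15.9% had an interval, and at that share a count of 0 of 3 related copies cannot show a departure from the background. The span without an interval, from Baz1a to the 698 bp interval at the start of Ppp2r3c, 23408 bp beyond Srp54c, was 303478 bp long. Of all gaps between neighbouring intervals on a chromosome, 29.3% were at least that long, so a gap of this length was common.

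**Figure D2:**
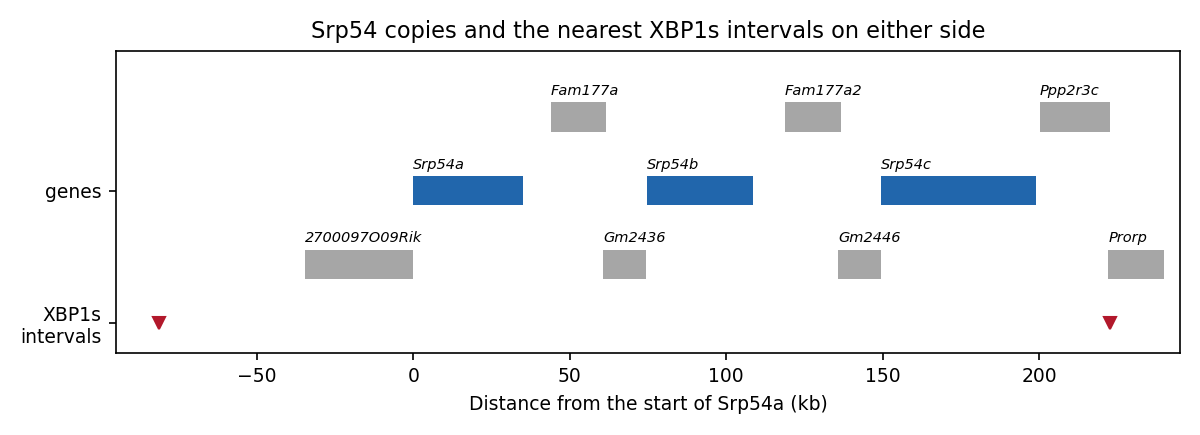
Protein-coding genes around the 3 Srp54 copies (blue; neighbours grey) and the nearest XBP1s intervals on either side (red triangles), in kb from the start of Srp54a. The intervals at Baz1a and Ppp2r3c flank a span of 303478 bp without any, in which all 3 copies lie.

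Parts of the start regions of the copies are identical, which bears on how reads can be placed. The promoter windows of Srp54a and Srp54c aligned over 273 bases with 96.3% identity. Of the 201 stretches of 100 bases in the Srp54a window, a length set for this count, 54 occur unchanged in that of Srp54c. The window of Srp54b starts at another point of the copy and overlaps the others little. It matched Srp54c at all of 91 aligned bases and Srp54a at 62 of 66. Both overlaps are shorter than 100 bases, so none of its 201 stretches of 100 bases could be shared with either. That count therefore does not show that reads of Srp54b can be told apart, and the rest of its copy was not compared. Reads that lie wholly within the stretches that Srp54a and Srp54c share cannot be assigned to 1 copy by their own sequence. The labels and file header do not say how the authors handled such reads. The part of this in the missing interval was not tested. The longest run shared by Srp54a and Srp54c is shown, since it holds 2 of the 3 ACGT matches of each window (capitals). It spans 153 bases, at chr12:55080264-55080416 and chr12:55230170-55230322, plus strand.
Srp54a and Srp54c: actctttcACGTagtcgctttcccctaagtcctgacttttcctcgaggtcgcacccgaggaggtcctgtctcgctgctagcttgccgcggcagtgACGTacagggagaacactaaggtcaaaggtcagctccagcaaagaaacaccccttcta

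Widths over the 7 genes ranged from 370 to 1468 bp, a ratio of 3.97, with a median of 890 bp. Over all 3487 protein-coding genes with an interval the median was 410 bp and the upper quartile 625 bp. Of the 7 genes, 6 lay above that median and 5 above that quartile, all but Srp14 and Srprb. The members therefore spread from just below the middle of the distribution to its top 2.32%, and the 2 subunits of the receptor differed in width by more than the 2 of the Srp68 and Srp72 pair.

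**Figure D3:**
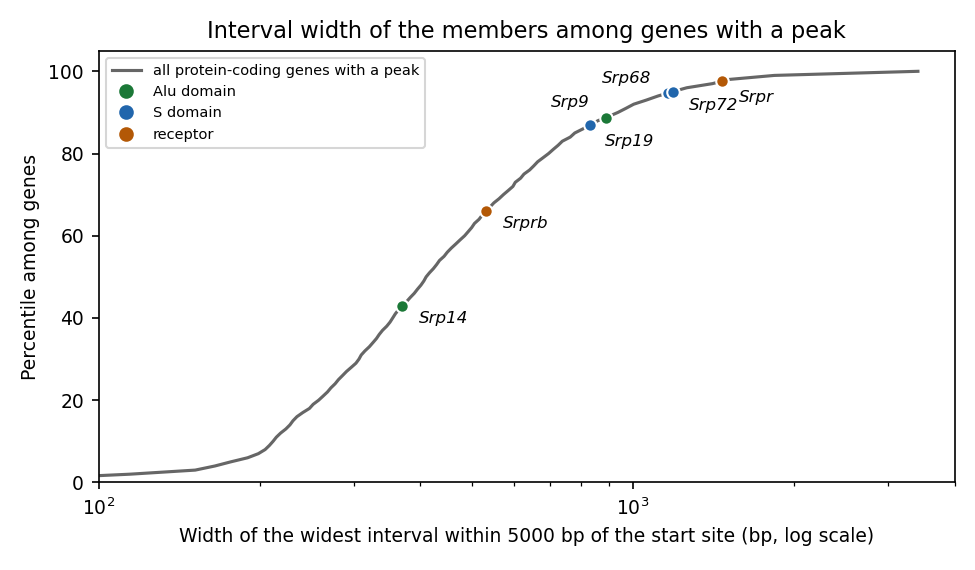
Percentile of the widest interval within 5000 bp of the start among 3487 protein-coding genes with one (line), against its width in bp on a log axis, with the 7 SRP and SRP receptor genes as points coloured by part. Srp14 at 370 bp lies below the middle of the line, and Srpr at 1468 bp near its top.

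The intervals lay mostly on the transcribed side of the start. Each of the 7 reached further downstream than upstream, by a median of 759 bp against 130 bp, while among 1602 intervals that cover the start of a gene with 1 RefSeq start, 59.4% did so, with medians of 249 and 214 bp. By the authors' distances, 6 of the 7 were centred downstream, against 59.9% of the 4005 intervals within 5000 bp of a TSS.

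Sequence features were then set beside those of all promoters. Of 11 motifs searched on both strands in 21263 promoter windows of protein-coding genes, ACGT occurred in 4 of the 6 member windows (Srp14, Srp54a, Srpr and Srprb) and in 33.0% of all. CCACG occurred in 3 of 6 (Srp9, Srpr and Srprb) and in 37.4% of all, and in Srp9 it lay 168 bases before the start, outside the interval. GCCACGT, which overlaps both, occurred in Srprb and in 2.91% of all. No member window held the unfolded protein response element TGACGTGG (0.705% of all), the full ERSE (CCAAT, then 9 bases of any kind, then CCACG; 0.141%), ERSE-II (ATTGG, then 1 base of any kind, then CCACG; 0.0517%) or the cAMP response element TGACGTCA (2.23%). These elements are rare in all promoters, and their letters are absent from these windows only.

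Motifs of general promoter factors were searched for comparison. CCAAT, bound by NF-Y, occurred in Srp9, Srp54a and Srpr (38.2% of all). The GC box GGGCGG, bound by SP1, occurred in Srp9, Srp14, Srp54a and Srpr (46.2%), the ETS core CCGGAAG in Srp54a and Srp72 (11.6%), and the NRF1 core in none (1.33%). The Srp54a window, with no interval, thus held 3 matches of ACGT, and the Srp72 window, of which 60.0% lies inside an interval, held none. Windows that touch an interval held ACGT in 55.2% of 3221 cases and CCACG in 58.2%, against 29.0% and 33.7% of the 18042 that do not. The motifs of general factors were also more frequent in the windows that touch an interval, with 69.9% against 42.0% for the GC box, 30.7% against 8.15% for the ETS core, 2.79% against 1.07% for the NRF1 core and 40.6% against 37.8% for CCAAT, so the rise was not particular to ACGT and CCACG. The longer elements rose too, with 7.73% against 2.05% for GCCACGT, 1.96% against 0.482% for TGACGTGG and 5.93% against 1.57% for TGACGTCA. For ERSE the shares were 0.404% against 0.0942%, and for ERSE-II 0.217% against 0.0222%. Whether these rises differ in size from those of the general motifs was not tested. Base composition moved with these shares and its part was not tested. Median GC content was 62.3% in windows that touch an interval and 55.0% in those that do not. The median ratio of observed to expected CpG, a dinucleotide that both ACGT and CCACG contain, was 0.86 against 0.46. In the members GC content ranged from 50.0% in Srprb to 68.0% in Srpr, with 58.7% in Srp54a.

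SRP delivers its cargo to other complexes, and the genes of ER targeting and of the machinery around the translocon were counted in the same way. Of 60 such genes outside the 8, 36 had an interval (60.0%, against 15.9% of all protein-coding genes), with a median width of 1098.5 bp (410 bp over all genes with one). The 60 include Srp54b, Srp54c and the noncoding 7SL RNA genes Rn7s1 and Rn7s2, and 0 of these 4 had an interval. The steps directly after SRP had intervals at nearly every gene and mostly wide ones. These were the SEC61 channel and the TRAP complex (6 of 8, median 1550 bp, widest Sec61g at 2273 bp), signal peptidase and signal peptide peptidase (6 of 6, median 1346.5 bp, widest Sec11c at 2705 bp), and oligosaccharyltransferase (11 of 12, median 1244 bp, widest Stt3a at 2227 bp). The exceptions were Sec61a2, Tusc3 and Sec61b. A RefSeq boundary of Sec61b lies inside the 1988 bp interval assigned to Alg2, and whether it is the start site or the far end was not resolved. The SRP and receptor median of 890 bp lay below all 3 of these medians, and Srpr at 1468 bp lay within the range of each.

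Other routes of targeting and insertion differed among themselves. For tail-anchored proteins, which are inserted after translation by the GET factors, 5 of 7 genes had an interval, with a median of 457 bp and Get4 the widest at 882 bp. Ubl4a and Sgta had none. In the EMC insertase, which inserts many transmembrane segments, 1 of 10 genes did, Emc3 with 347 bp, a share of 10.0% that is near the 15.9% of all genes. Emc1, Emc2, Emc4, Mmgt1, Emc6, Emc7, Emc8, Emc9 and Emc10 did not. Tmem208, the 1 gene counted for the SND route, had none. Sec63, a partner of SEC61 for proteins that enter after translation, had 1421 bp and Sec62 456 bp.

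The remaining groups counted around the ribosome and the translocon were mixed. Of the multipass translocon, 3 of 6 genes had an interval (median 647 bp, widest Tmco1 at 664 bp). Ccdc47, Wdr83os and Tmem147 had none assigned, though a RefSeq boundary of Ccdc47, its start site or its far end, lies inside the 1049 bp interval assigned to Ddx42. Of the nascent-chain complex, which competes with SRP for ribosomes, Naca had 494 bp and Btf3 none. Of the genes counted under ribosome receptors, Rrbp1 had 1275 bp and Ktn1 none. With at most 12 genes in a group, the exact 95% intervals of these shares are wide (EMC 0.253 to 44.5%, signal peptidase 54.1 to 100%), and differences between groups were not tested. These ranges too treat the genes of a named set as independent draws.

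**Figure D4:**
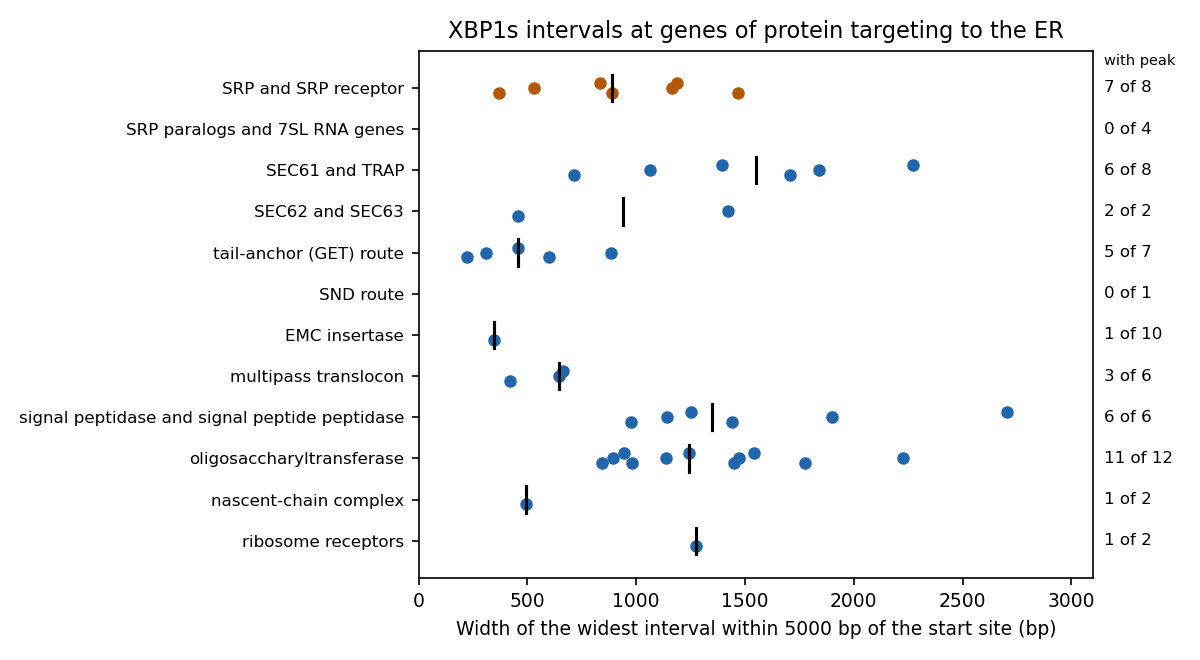
Width in bp of the widest XBP1s interval within 5000 bp of the start for each gene (points) of SRP and its receptor (orange) and of other groups in protein targeting to the ER (blue), with the group median as a vertical line and the number of genes with an interval at the right. SRP genes spread from 370 to 1468 bp, and their median of 890 bp lies between those of the GET factors (457 bp) and of the SEC61 and TRAP group (1550 bp).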

How the data were processed

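ChIP-seq of XBP1s in mouse NK cells gave 2 immunoprecipitations and 2 inputs. Per the file header, the deposited table is the output of the HOMER annotator on 1 common set of intervals with mm10. The submitters' processing notes list Bowtie2 2.4.5 and MACS2 2.2.7.1, with Trim Galore 0.6.7, HOMER 4.11 and 4.11.1, and FastQC 0.11.9. Not given in the sources used here are how calls were combined, the threshold and any pooling; an interval may be a shared part of several calls. The score that the authors deposited is 0 throughout. Distances to the TSS, in bp, and annotations are the authors' own, per the file header.

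Width is end minus start plus 1, on 1-based positions. An interval counted for the gene that the authors give as nearest, matched by Entrez number, if its centre lay within 5000 bp of the TSS. Reach was measured from the RefSeq start. Genes other than members are named where a RefSeq end lies within 1000 bp of a member's interval, as Srp54 copies, or as the widest or missing genes of each group. Motif matches were exact, and promoter windows were aligned globally with free end gaps. The counting and motif steps were tested on simulated data. The members and lists were chosen with earlier results of these data known. Software was Biopython 1.88, matplotlib 3.10.9, SciPy 1.17.1, NumPy 2.4.6, pandas 2.3.3 and Python 3.11.15.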

Additional observations from a re-analysis of the deposited data

How the results depend on the processing

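The count of 7 genes with an interval was the same with a window of 1000 bp, at any distance, with intervals of at least 200 bp, with an interval of any gene within 1000 bp of a RefSeq end, and with RefSeq synonyms and Entrez numbers. Among the widest 50% of intervals it was 6, without Srp14. The share over all genes moved from 15.9% to 15.1% with a window of 1000 bp, 17.8% at any distance, 9.03% with the widest 50% of intervals and 7.33% over all genes of the RefSeq table, noncoding ones included. The median width of 890 bp was 832 bp over all 9 intervals and between 861 and 1026.5 bp when each gene was left out in turn. The 60 targeting genes gave 36 in each distance setting and 38 with gene ends. In windows from 100 bp before the start, CCACG matched in 2 of 6 members in place of 3, and the other 6 element counts were the same. Of 37 alternative values, 33 stayed within their limit. No paired analysis was possible because there are no values for single libraries, so no replicate could be left out either, and the unknown depth leaves a missing interval without a detection limit.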

Other observations

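The RNA of the particle, 7SL, is made from genes outside the 8. Neither Rn7s1 nor Rn7s2, the 7SL genes in the RefSeq table, was the nearest gene of an interval. An end of Rn7s1 lies 396 bp from a 431 bp interval assigned to Rps29, a ribosomal protein gene. No interval was found within 1000 bp of Rn7s2.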
